A study of Mus musculus with 71 samples.

Results

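MicroRNA (miRNA) profiles of 3 brain regions, cortex, striatum and cerebellum, were compared within naive DYT1KI mice. DYT1KI mice carry a knock-in of the TOR1A mutation that causes DYT-TOR1A dystonia, which alters torsinA, a protein of the AAA+ ATPase family in the nuclear envelope and the lumen of the endoplasmic reticulum. All 18 small RNA libraries labelled as DYT1KI and naive were used, out of 71 in the series, and they came from 6 male mice with 1 library per region each. The 18 libraries of naive wild-type (WT) males, again 6 per region, served only to show whether a regional difference was also present without the mutation. The remaining libraries of the series came from mice with a crush of the right sciatic nerve at 12 weeks of age and were not used here. Naive mice carry the same time label as injured ones, 12 weeks after injury, so their age at sampling can only be read from that label. Cortex and striatum were taken from the left side and the cerebellum from the right side. RNA came from a miRNeasy micro kit for cortex and striatum and from a miRNeasy mini kit for cerebellum. Region, side and kit therefore cannot be told apart in any comparison with the cerebellum. The tissue pieces were bulk samples, so fewer cells of a type and less RNA per cell cannot be told apart.

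A miRNA is a short RNA that guides Argonaute proteins to messenger RNAs, mostly by pairing of its seed, bases 2 to 8 from the 5′ end, and lowers the output of the messages it pairs with. Each hairpin precursor can give a 5p and a 3p strand, of which usually one is kept and the other is degraded. Brain regions are known to differ in miRNA content. Hox genes, and the miR-10 and miR-196 hairpins encoded among them, are known from hindbrain and spinal cord, whereas miR-132 and miR-212 are induced by neuronal activity in the forebrain. Regional profiles such as these give the reference against which an effect of the torsinA mutation can be read.

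Mature sequences from RefSeq (GRCm38.p6) are shown for the miRNAs that set the regions apart, since a shared seed means a shared set of possible targets. Of the 582 miRNA names tested, 500 matched an entry there (85.9%). Capitals mark the seed. The first set was highest in the cerebellum, and within it miR-10a-5p and miR-10b-5p share 1 seed, as do miR-195a-5p and miR-497a-5p:
miR-206-3p: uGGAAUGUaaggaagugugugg
miR-10a-5p: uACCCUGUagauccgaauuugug
miR-10b-5p: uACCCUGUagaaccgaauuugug
miR-196a-5p: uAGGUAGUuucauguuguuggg
miR-182-5p: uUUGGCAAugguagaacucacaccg
miR-183-5p: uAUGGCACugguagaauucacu
miR-96-5p: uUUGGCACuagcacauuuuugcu
miR-195a-5p: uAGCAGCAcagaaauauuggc
miR-497a-5p: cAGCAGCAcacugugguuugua
miR-182-5p, miR-183-5p and miR-96-5p come from 1 cluster on chromosome 6 but have 3 different seeds.

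The second set separated striatum from cortex or the forebrain regions from cerebellum, in either direction, and miR-449a-5p is placed beside miR-34a-5p because they share a seed and went in opposite directions in the striatum:
miR-139-5p: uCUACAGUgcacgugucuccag
miR-139-3p: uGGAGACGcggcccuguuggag
miR-138-5p: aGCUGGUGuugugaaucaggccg
miR-7a-5p: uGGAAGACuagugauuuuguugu
miR-449a-5p: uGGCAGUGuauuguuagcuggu
miR-34a-5p: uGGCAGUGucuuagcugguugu
miR-181c-5p: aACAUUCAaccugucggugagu
miR-181d-5p: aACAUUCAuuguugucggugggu
miR-31-5p: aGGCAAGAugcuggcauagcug
miR-128-3p: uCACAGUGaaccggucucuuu
miR-181c-5p and miR-181d-5p also share a seed, and both were low in the striatum.

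The third set holds the cortex-high miR-132 and miR-212, which share a seed, the abundant miR-26 and let-7 guide strands, and 3 miRNAs from introns of Htr2c, the gene of a serotonin receptor, for which 1 cortex library stood apart:
miR-132-3p: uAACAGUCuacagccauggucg
miR-212-3p: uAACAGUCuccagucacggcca
miR-26a-5p: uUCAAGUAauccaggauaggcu
miR-26b-5p: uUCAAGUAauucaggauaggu
let-7a-5p: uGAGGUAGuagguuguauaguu
let-7c-5p: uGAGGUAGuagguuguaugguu
miR-448-3p: uUGCAUAUguaggaugucccau
miR-1298-5p: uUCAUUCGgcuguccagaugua
miR-1264-3p: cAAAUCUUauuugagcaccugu
The 2 miR-26 strands share a seed, and so do the 2 let-7 strands.

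The cortex libraries held 7417214 to 8944668 counts, the striatum libraries 6346956 to 8639540 and the cerebellum libraries 9889459 to 11966024. Of 1927 miRNAs listed, 942 had a count in at least 1 of the 18 libraries and 582 passed the filter on low counts. In cerebellum the 10 leading miRNAs made up 69.4% to 75.7% of a library, against 56.4% to 62.2% in cortex and 53.2% to 56.6% in striatum. Region labels were checked with marker miRNAs. The summed level of 8 cerebellum and hindbrain markers was 10048 to 13218 CPM (read counts scaled to a common library size) in cerebellum, 1790 to 2048 CPM in cortex and 594 to 781 CPM in striatum, with no overlap. The striatal marker miR-187-3p stood at 4480 to 5875 CPM in striatum and at most 749 CPM elsewhere, and the summed cortical markers miR-132-3p and miR-212-3p at 682 to 1866 CPM in cortex and at most 582 CPM elsewhere. All 18 libraries thus matched their region label by these markers. The same miRNAs are among the regional results below, and members were chosen with earlier results of these data known. The match is therefore not an independent check of the labels. Oligodendrocyte and blood markers were present in all 3 regions. Summed markers of meninges and mesenchyme (3 miRNAs) were lowest in striatum (9.90 to 17.9 CPM), with 34.8 to 62.1 CPM in cortex and 54.5 to 101 CPM in cerebellum. Summed blood markers (3 miRNAs) were highest in cerebellum (91.1 to 141 CPM), with 31.7 to 80.3 CPM in cortex and 27.6 to 65.2 CPM in striatum. Of these only the merged miR-486 5p entry was called higher in cerebellum than in cortex (log2 fold change 1.82). miR-144-3p had −0.74 and was not called, nor was miR-451a, for which no fold is given. Summed choroid plexus and ependyma markers (5 miRNAs) were 1115 to 2679 CPM in cerebellum, 309 to 559.7 CPM in striatum and 186 to 586 CPM in 5 cortex libraries, with 2161 CPM in the cortex library of replicate 1. Their members went in opposite directions in striatum against cortex with all libraries. miR-449a-5p had a log2 fold change of 4.29, against −2.08 for miR-204-5p, −2.06 for miR-34b-5p and −1.39 for miR-34c-5p. miR-211-5p was at 0 in striatum and cerebellum. Summed pituitary and hypothalamus markers (3 miRNAs, among them miR-7a-5p) were 8952 to 12449.8 CPM in striatum, 2228 to 3789 CPM in cortex and 2869 to 7325 CPM in cerebellum. The high striatal sum followed miR-7a-5p and miR-7b-5p, with log2 fold changes over cortex of 2.16 and 1.32. The third, miR-375-3p, was highest in cerebellum, by 2.05 over cortex and 2.62 over striatum, and had −0.57 for striatum over cortex. The part of these marker groups in the regional differences was not tested.

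Several libraries stood apart. The cortex library of DYT1KI replicate 1 held 1550 CPM of 5 Htr2c-hosted miRNAs, against at most 63.6 CPM in the other 5 cortex libraries. The cortex library of replicate 4 had the highest let-7 levels and the lowest miR-124-3p level of its group. On the second principal component of the 36 naive libraries, which held 24.9% of the variance, replicates 1 to 3 lay apart from replicates 4 to 6 in the cortex of DYT1KI mice (19.6 to 23.5 against −4.84 to 6.92) and in their cerebellum (0.772 to 11.9 against −9.99 to −7.80). In the striatum these ranges overlapped (−14.4 to −11.4 and −13.9 to −7.99). The WT libraries of cortex and cerebellum were split by replicate number in the same way. The labels name no batch for this split, and for several results that changed with it the value within a range is given. In addition 7 miRNAs were at 0 in some libraries and well counted in others, such as miR-24-3p, at 0 in 3 cortex libraries and at 99885 to 118774 counts in the other 3, and no fitted fold is given for them. The list counts and medians below still include miR-219a-5p, miR-337-3p, miR-377-3p and miR-451a.

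**Figure D1:**
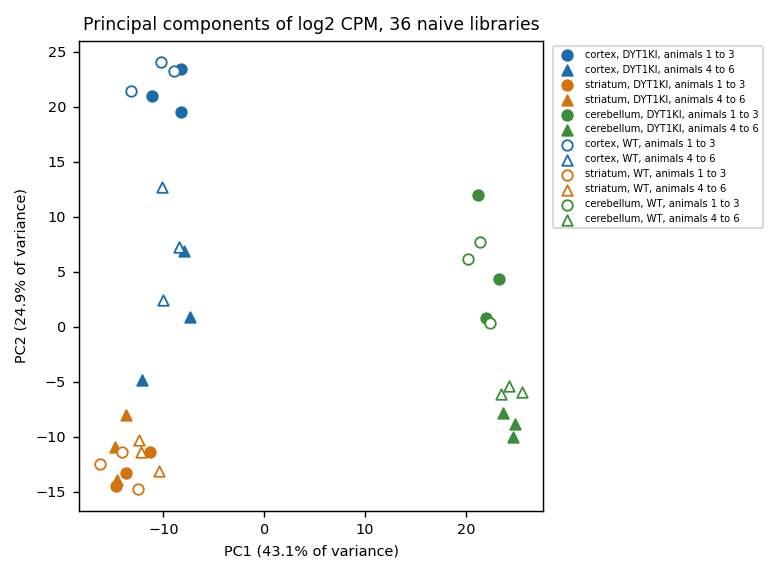
Principal components of log2 CPM in the 36 naive libraries, coloured by region, filled for DYT1KI and open for WT, with 1 symbol for replicates 1 to 3 and another for 4 to 6. The first component (43.1% of variance) sets the 12 cerebellum libraries, at 20.2 or above, apart from cortex and striatum, all below −7; the second (24.9%) sets cortex apart from striatum and splits cortex and cerebellum by replicate number.

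Levels below are CPM after TMM scaling, given as the lowest to the highest of the 6 libraries with the median. Log2 fold changes are ± standard error (SE) from edgeR's quasi-likelihood test, with p-values adjusted by the Benjamini-Hochberg method over the 582 miRNAs. A miRNA was called where the adjusted p was under 0.05 and the absolute log2 fold change at least 1. The 3 pairwise comparisons share libraries and are not independent of each other. All 6 libraries of 1 region lay beyond all 6 of the other for 20.4% of tested miRNAs between striatum and cortex, 31.6% between cerebellum and cortex and 41.9% between cerebellum and striatum, and in WT for 32.8%, 41.8% and 44%, so a lack of overlap is common here.

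The striatum of DYT1KI mice was set apart from the cortex by a small group of strongly enriched miRNAs, led by miR-187-3p, miR-449a-5p, miR-206-3p, miR-139-5p and miR-7a-5p. In the other direction miR-34a-5p, miR-195a-5p, miR-497a-5p and the miR-181c/d pair were several-fold lower. In all, 121 of 582 miRNAs (20.8%) were called, 46 higher (7.9%) and 75 lower (12.9%) in striatum, and the median log2 fold change over all tested miRNAs was −0.04. Under upper-quartile scaling the split became 31 higher and 123 lower, with the median over all miRNAs at −0.39.

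miR-187-3p had the largest log2 fold change of the striatum-high miRNAs with counts in every cortex library. Its level was 4480.2 to 5875 CPM (median 5220.3) in striatum, 136 to 198 CPM (median 158.8) in cortex and 411 to 749 CPM (median 582) in cerebellum. Every striatum library lay above every library of both other regions. The log2 fold change of striatum over cortex was 5.0 ± 0.16 (edgeR adjusted p = 1.1e-23), and that of cerebellum over striatum was -3.15 ± 0.15 (edgeR adjusted p = 5.2e-19).

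miR-139 is encoded within Pde2a, the gene of a cyclic nucleotide phosphodiesterase, with miR-139-5p at chr7:101475382-101475403 (plus strand). miR-139-5p stood at 18072 to 23022 CPM (median 21389) in striatum, 4157 to 6353 CPM (median 4835) in cortex and 536 to 828 CPM (median 699) in cerebellum. The 3 regions were thus fully separated, in the order striatum, cortex, cerebellum. Striatum exceeded cortex by 2.04 ± 0.11 log2 units (edgeR adjusted p = 4.9e-17), and the cerebellum lay below the striatum with a log2 fold change of -4.88 ± 0.13 (edgeR adjusted p = 6.7e-27). The other strand, miR-139-3p, went the same way at a lower level, with 636 to 931 CPM (median 845) in striatum, 104 to 353 CPM (median 136) in cortex and 8.58 to 17.2 CPM (median 12.3) in cerebellum.

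miR-138-5p, a miRNA of dendrites that is known to limit spine size in cultured rat neurons, was among the most abundant striatal miRNAs. It reached 43559 to 49713 CPM (median 48652) in striatum, 15292 to 22359 CPM (median 18260.3) in cortex and 7893 to 12056 CPM (median 9296) in cerebellum. The striatum libraries lay above all others, with a log2 fold change over cortex of 1.38 ± 0.11 (edgeR adjusted p = 3.3e-12). Cerebellum and cortex also did not overlap, but their difference of -0.95 ± 0.11 stayed short of 1 log2 unit. miR-138-2-3p, the passenger strand of 1 of the 2 miR-138 hairpins, on chromosome 8, was also highest in striatum, with 121 to 159.1 CPM (median 136) in striatum and 39.9 to 66.7 CPM (median 49.96) in cortex.

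miR-7a-5p, which is known for its abundance in neuroendocrine cells and for its binding to the circular RNA Cdr1as, was also highest in striatum. Its levels were 6827 to 9616 CPM (median 8259.5) in striatum, 1488 to 2424 CPM (median 1747) in cortex and 2064 to 5354 CPM (median 3569) in cerebellum. Striatum exceeded cortex without overlap, by 2.16 ± 0.17 log2 units (edgeR adjusted p = 2.4e-12). The cerebellum was higher than cortex by 1.03 ± 0.17, a value so close to the minimum fold that the animal block (0.99), library totals (0.29) and the leaving out of replicate 4, 5 or 6 (0.88 to 0.99) ended that call, and within replicates 1 to 3 the value was 0.48. The log2 fold change of cerebellum over striatum became −0.72 under upper-quartile scaling, −0.92 without replicate 1 and −0.85 within replicates 4 to 6, none of them called, and was not called in WT. miR-760-3p (striatum 134 to 184 CPM (median 156.3), cortex 24.4 to 82.7 CPM (median 36.3)) and miR-431-5p (striatum 144 to 311 CPM (median 191), cortex 66.8 to 101 CPM (median 82.9)) were further striatum-high miRNAs, and the call of miR-431-5p over cortex did not hold under upper-quartile scaling (0.95) or within replicates 1 to 3 (0.95).

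The pair of miR-449a-5p and miR-34a-5p shows that 1 seed need not have 1 regional profile. miR-449a-5p, encoded in an intron of Cdc20b at chr13:113037549-113037570 (plus strand) and known from multiciliated cells, was low everywhere but highest in striatum: 178 to 216 CPM (median 199) there, 9.22 to 11.3 CPM (median 10.2) in cortex and 39.7 to 62.0 CPM (median 48.3) in cerebellum. miR-34a-5p, a p53-responsive miRNA, was abundant at 7885 to 9574 CPM (median 8996) in cortex and 10119 to 13164 CPM (median 11304) in cerebellum and fell to 916 to 2174 CPM (median 1532) in striatum. No striatum library overlapped with either other region for either miRNA. The log2 fold changes of striatum over cortex were 4.29 ± 0.12 for miR-449a-5p (edgeR adjusted p = 2.6e-25) and -2.57 ± 0.19 for miR-34a-5p (edgeR adjusted p = 4.6e-13). Of the 7 tested members of the miR-34 and miR-449 family, the striatum had 1 above and 4 below the cortex, while 5 were higher and 1 was lower in cerebellum than in striatum. miR-34c-5p was 1 of the 4 lower ones with a log2 fold change of -1.39 ± 0.42; without the cortex library of replicate 1 its value was −0.61 and no longer called, and within replicates 4 to 6 it was 0.030.

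miR-195a-5p and miR-497a-5p, which come from 1 cluster on chromosome 11 (miR-497a-5p at chr11:70234730-70234751 (plus strand)) and are known as brakes on the cell cycle, were lowest in striatum and highest in cerebellum. miR-195a-5p stood at 165 to 219 CPM (median 176) in striatum, 789 to 1102 CPM (median 961) in cortex and 2835 to 5440.1 CPM (median 3260.3) in cerebellum. miR-497a-5p stood at 194 to 324 CPM (median 246), 636 to 1155 CPM (median 898) and 2328 to 4355 CPM (median 3714) in the same order. All 3 regions were separated without overlap for both. The fold from striatum to cerebellum was 20.7 for miR-195a-5p (log2 4.37 ± 0.20, edgeR adjusted p = 2.2e-19) and 14.2 for miR-497a-5p (log2 3.83 ± 0.20, edgeR adjusted p = 6.2e-18). miR-15a-5p and miR-15b-5p, which share their seed but come from other clusters, had log2 fold changes of cerebellum over striatum of −0.02 and −0.51 and were not called, nor was miR-322-5p (−0.57). miR-16-5p, with the same seed, was called higher in cerebellum, by 1.04 over striatum and 1.08 over cortex, values close to the minimum fold.

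miR-181c-5p and miR-181d-5p, neighbours on chromosome 8, were likewise low in striatum. miR-181c-5p had 50.9 to 102 CPM (median 67.8) in striatum, 196 to 397 CPM (median 343) in cortex and 524 to 795 CPM (median 584) in cerebellum. miR-181d-5p had 28.7 to 65.2 CPM (median 39.7), 135 to 244 CPM (median 201) and 180.2 to 451 CPM (median 255). The striatum was below the cortex by similar amounts, with log2 fold changes of -2.16 ± 0.20 (edgeR adjusted p = 4.7e-11) and -2.20 ± 0.26 (edgeR adjusted p = 2.5e-08), and in neither case did the libraries overlap. Of the 8 tested members of the miR-181 family, 3 were lower in striatum than in cortex (12.9% of all miRNAs) and 5 were higher in cerebellum than in striatum (19.6% of all miRNAs).

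The cerebellum of DYT1KI mice differed from the cortex in many more miRNAs. Higher in cerebellum were miR-206-3p, the miRNAs of the Hox clusters, the miR-183 cluster and the miR-26 strands. Lower were miR-31-5p, both miR-139 strands, miR-128-3p, both strands of miR-132 and miR-221-3p. The test called 231 of 582 miRNAs (39.7%), 100 higher (17.2%) and 131 lower (22.5%), with a median log2 fold change of −0.14 over all tested miRNAs. When libraries were scaled by their totals instead, 48 were higher and 257 lower and the median over all miRNAs moved to −0.86.

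miR-206-3p, known as a miRNA of skeletal muscle, had the largest log2 fold change of cerebellum over cortex. It lies at chr1:20679055-20679076 (plus strand) within an exon of the long non-coding RNA Gm28653 in the GENCODE vM21 annotation. Its level was 2969.6 to 4949 CPM (median 4087) in cerebellum, 160.3 to 251 CPM (median 203) in striatum and 13.3 to 18.8 CPM (median 14.3) in cortex. No libraries of different regions overlapped, in the order cerebellum, striatum, cortex. The cerebellum exceeded the cortex 271-fold (log2 8.08 ± 0.19, edgeR adjusted p = 1.9e-28), and the striatum exceeded the cortex by 3.79 ± 0.15 log2 units (edgeR adjusted p = 6.9e-21). Of the 4 tested muscle miRNAs, only miR-206-3p was called higher in cerebellum than in cortex, beside 17.2% of all miRNAs.

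The miRNAs of the Hox clusters marked the cerebellum. Of 11 listed, 7 had a count in DYT1KI mice and 5 passed the filter on low counts, and these 5 were called higher in cerebellum than in cortex and striatum under the 4 scalings tried. miR-10a-3p, miR-196a-5p and miR-615-3p passed that filter through the cerebellum alone, so their calls were fixed by it. With a mean of 2.41 CPM in cerebellum, miR-10a-3p was at 0 in all DYT1KI striatum libraries. Over all miRNAs, higher calls in cerebellum made up 17.2% against cortex and 19.6% against striatum. miR-10a-5p, at chr11:96317186-96317208 (plus strand), had 153 to 391 CPM (median 327) in cerebellum, 4.60 to 9.45 CPM (median 6.60) in cortex and 4.48 to 9.39 CPM (median 5.74) in striatum. miR-10b-5p, encoded within Hoxd3 and Hoxd4 transcripts at chr2:74726074-74726096 (plus strand), had 105 to 212 CPM (median 164), 3.33 to 6.72 CPM (median 4.89) and 0 to 1.37 CPM (median 0.526). Cerebellum and cortex were separated without overlap, with log2 fold changes of 5.5 ± 0.26 for miR-10a-5p (edgeR adjusted p = 9e-19) and 4.95 ± 0.33 for miR-10b-5p (edgeR adjusted p = 7.7e-15). miR-10b-5p also lay lower in striatum than in cortex (log2 -3.10 ± 0.37, edgeR adjusted p = 2.6e-08), whereas miR-10a-5p did not differ beyond its error there (95% interval of the log2 fold change -0.60 to 0.34). miR-196a-5p and miR-615-3p had counts in the cerebellum only, with 1.55 to 3.60 CPM (median 3.01) and 1.32 to 2.41 CPM (median 2.03). With 3 counts per library as the floor in the regions at 0, miR-196a-5p was at least 8.48-fold higher in cerebellum than in cortex and miR-615-3p at least 5.96-fold higher.

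The miR-183 cluster, which is known from sensory neurons and the retina, followed the same pattern in the 4 of its 6 listed members that passed the filter, again under the 4 scalings. Higher calls in cerebellum made up 17.2% of all miRNAs against cortex and 19.6% against striatum. miR-182-5p stood at 118 to 197 CPM (median 139.8) in cerebellum, 3.71 to 19.2 CPM (median 6.18) in cortex and 5.22 to 6.61 CPM (median 6.24) in striatum. miR-183-5p stood at 39.5 to 62.2 CPM (median 54.2), 1.12 to 7.36 CPM (median 2.40) and 1.58 to 3.62 CPM (median 2.52). miR-96-5p was close to the detection limit in the forebrain, with 3.23 to 15.3 CPM (median 8.51), 0.282 to 2.52 CPM (median 0.759) and 0 to 0.373 CPM (median 0.288). It passed the filter through the cerebellum, so its calls were fixed by it. The cerebellum libraries lay above all others for each of miR-182-5p, miR-183-5p and miR-96-5p. The log2 fold changes of cerebellum over cortex were 4.07 ± 0.30 for miR-182-5p and 3.82 ± 0.31 for miR-183-5p (edgeR adjusted p at most 5e-06). For miR-96-5p the value was 3.03 ± 0.51.

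**Figure D2:**
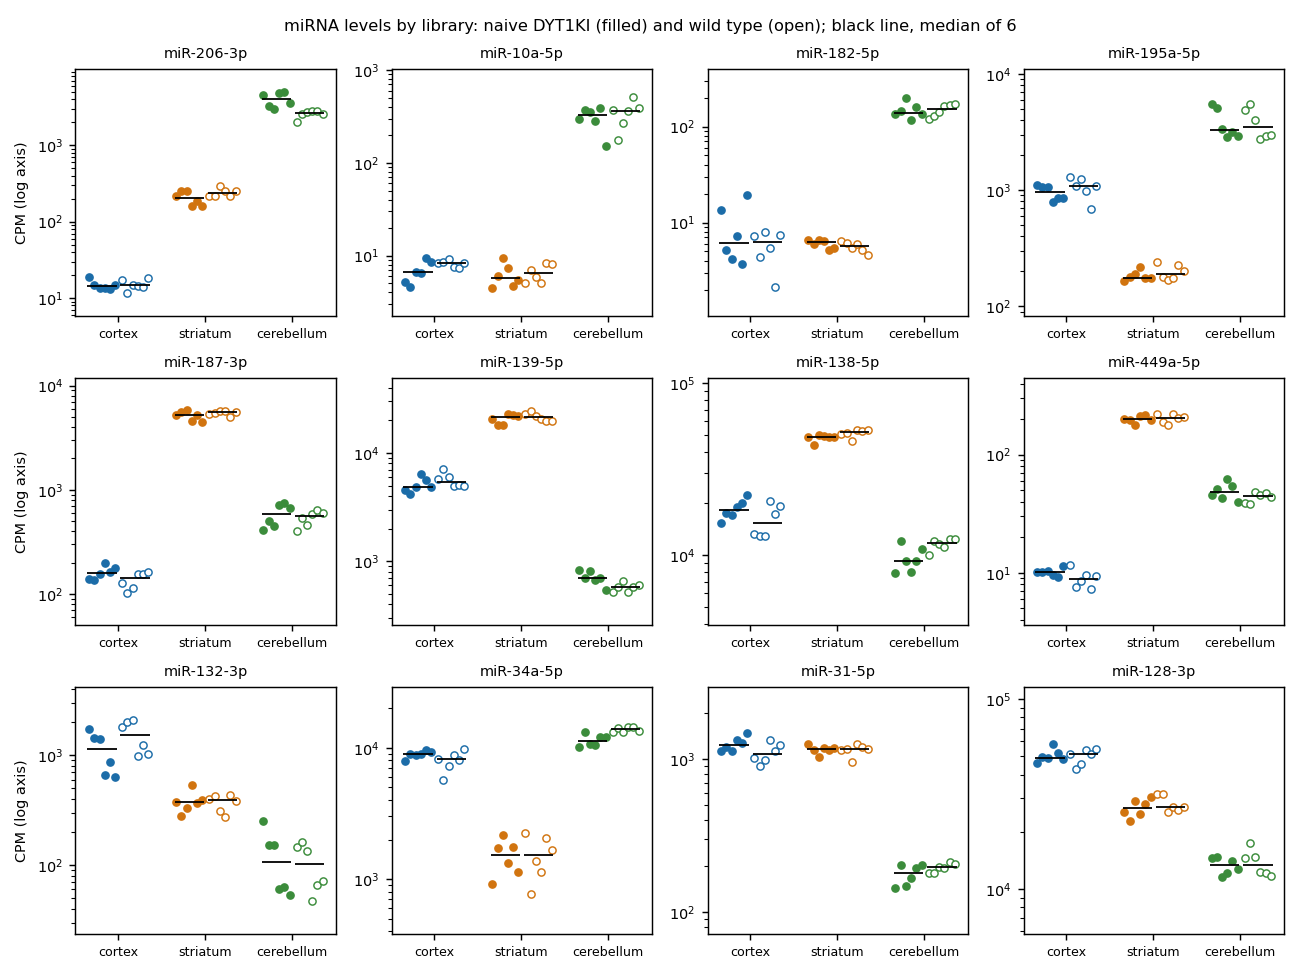
CPM (log axis) of 12 miRNAs in each library of cortex, striatum and cerebellum, filled for naive DYT1KI and open for naive WT, with a black line at the median of 6. miR-206-3p, miR-10a-5p and miR-182-5p are highest in cerebellum, miR-187-3p, miR-139-5p, miR-138-5p and miR-449a-5p are highest in striatum, and miR-34a-5p and miR-195a-5p are lowest there; the ranges of open and filled points overlap in each region, except for miR-206-3p in cerebellum, where the filled points lie higher.

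Among the miRNAs lower in cerebellum than in cortex, miR-31-5p had the smallest adjusted p. It stood at 1124 to 1474 CPM (median 1237) in cortex, 1029 to 1255 CPM (median 1165) in striatum and 144 to 204 CPM (median 181) in cerebellum. The forebrain regions overlapped and the cerebellum lay apart, with a log2 fold change over cortex of -2.83 ± 0.11 (edgeR adjusted p = 1.2e-21). miR-128-3p, a neuronal miRNA encoded in introns of R3hdm1 and Arpp21, fell stepwise from 46131 to 57698 CPM (median 49069) in cortex through 22870.5 to 30438 CPM (median 26639.8) in striatum to 11628 to 14815 CPM (median 13416) in cerebellum. No libraries of neighbouring regions overlapped, and the cerebellum was below the cortex by a log2 fold change of -1.92 ± 0.10 (edgeR adjusted p = 2.9e-18). miR-221-3p, from a cluster known for its response to nerve injury and growth factors, had 629.5 to 861 CPM (median 728) in cortex, 419.6 to 696 CPM (median 526) in striatum and 116 to 199 CPM (median 124) in cerebellum (log2 -2.34 ± 0.16 over cortex, edgeR adjusted p = 2.8e-14).

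Among the most abundant miRNAs, the regional calls of the miR-26 and let-7 groups depended on how libraries were scaled. miR-26a-5p stood at 96431 to 136114 CPM (median 119059) in cerebellum, 38192 to 45846 CPM (median 41276) in cortex and 34007 to 49807 CPM (median 36599.6) in striatum, and miR-26b-5p at 15279 to 23119.7 CPM (median 18202), 5157 to 7852 CPM (median 5948) and 6147 to 7181 CPM (median 6562). Their log2 fold changes of cerebellum over cortex were 1.52 ± 0.10 and 1.62 ± 0.11 (edgeR adjusted p 3.1e-15 and 7.7e-15), and with library totals they were 0.77 and 0.89, still higher but below 1 log2 unit. The 9 let-7 guide strands, including miR-98-5p, made up 51.4% to 63.0% of each cerebellum library (median 59.0%), 38.1% to 51.5% of each cortex library (median 40.8%) and 39.4% to 45.2% of each striatum library (median 41.5%). All 9 had higher means in cerebellum than in cortex, with log2 fold changes from 0.93 to 1.34, close to the minimum of 1. Of the 9, 7 were called, beside 17.2% of all miRNAs called higher. In WT none of the 18 tested let-7 family members, passenger strands included, was called higher. The difference of the 9 between genotypes was 0.39 to 0.61, with 2 called. With library totals the log2 fold changes in DYT1KI ran from 0.21 to 0.61 and none was called. let-7c-5p, the most abundant, had 165847 to 225063 CPM (median 193219) in cerebellum, 72662 to 125136 CPM (median 76967) in cortex and 58128 to 75649 CPM (median 67314) in striatum.

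Between cerebellum and striatum 251 of 582 miRNAs were called (43.1%), with 114 higher (19.6%) and 137 lower (23.5%) in cerebellum and a median log2 fold change of −0.05 over all. On the sides of this comparison stood miRNAs already described: miR-10b-5p (log2 8.05 ± 0.40), miR-195a-5p and miR-206-3p (log2 4.30 ± 0.16) on the cerebellum side, and miR-139-3p (log2 -6.02 ± 0.28), miR-139-5p and miR-187-3p on the striatum side. miR-383-5p, another miRNA low in cerebellum, had 60.6 to 82.0 CPM (median 68.1) in striatum, 30.2 to 61.8 CPM (median 44.6) in cortex and 8.49 to 12.0 CPM (median 11.2) in cerebellum, with no overlap between cerebellum and striatum (log2 -2.71 ± 0.16, edgeR adjusted p = 8.7e-17). miR-409-3p, from the imprinted Dlk1-Dio3 region, had 121 to 153.96 CPM (median 142) in striatum, 52.3 to 99.5 CPM (median 64.4) in cortex and 23.1 to 28.5 CPM (median 26.9) in cerebellum (log2 -2.41 ± 0.12 for cerebellum over striatum, edgeR adjusted p = 2.7e-18). The split of this comparison depended on scaling, with 92 lower calls of 250 and a median of 0.34 under upper-quartile scaling, and 47 higher and 251 lower and a median of −0.84 with library totals.

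Fewer miRNAs marked the cortex alone or the striatum alone than the cerebellum alone. A miRNA was counted as region-high where it was called higher than in both other regions, and as region-low where it was called lower than in both. The cortex had 27 region-high miRNAs of 582 (4.64%) and 17 region-low ones (2.92%). In WT the same rule gave 48 cortex-high miRNAs (8.25%), of which 22 were shared with DYT1KI, and 29 cortex-low ones (4.98%), of which 14 were shared. The striatum had 26 region-high (4.47%) and 34 region-low miRNAs (5.84%), and the cerebellum 71 region-high (12.2%) and 93 region-low miRNAs (16%). WT had 25 striatum-high (4.3%) and 35 striatum-low (6.01%) miRNAs, of which 19 and 25 were shared with DYT1KI, and 71 cerebellum-high (12.2%) and 86 cerebellum-low (14.8%), of which 55 and 75 were shared. With library totals the cerebellum counts became 26 high and 194 low.

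The cortex-high miRNAs included the strands of miR-132 and miR-212, a CREB-driven pair that is induced by neuronal activity. miR-132-5p stood at 905 to 1352 CPM (median 1129) in cortex, 349 to 575 CPM (median 434) in striatum and 83.0 to 181 CPM (median 118) in cerebellum. miR-132-3p, at chr11:75173723-75173744 (plus strand), stood at 629.9 to 1744 CPM (median 1142), 283 to 532 CPM (median 374) and 52.9 to 250.3 CPM (median 107). Cortex was above both other regions in all libraries for both strands, and the regions followed the order cortex, striatum, cerebellum. The log2 fold changes of striatum over cortex were -1.35 ± 0.19 for miR-132-5p (edgeR adjusted p = 8.1e-07) and -1.57 ± 0.34 for miR-132-3p (edgeR adjusted p = 0.00032). The replicate ranges differed for miR-132-3p in cortex, where replicates 1 to 3 had 1411 to 1744 CPM and replicates 4 to 6 had 630 to 874 CPM. Within replicates 4 to 6 the striatum was lower by −0.75 log2 units, which did not pass the test (edgeR adjusted p = 0.13), and within replicates 1 to 3 the cerebellum was below the striatum by a log2 fold change of −0.91, short of the minimum fold.

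miR-212-3p followed with 42.6 to 122 CPM (median 80.5) in cortex, 22.9 to 50.1 CPM (median 33.0) in striatum and 5.27 to 13.2 CPM (median 9.0) in cerebellum. The cerebellum was far below the cortex (log2 -3.17 ± 0.32, edgeR adjusted p = 1.7e-10), whereas striatum and cortex overlapped and the lower level in striatum (-1.22 ± 0.29) was not called within replicates 4 to 6 (−0.45). Of 7 tested activity-regulated miRNAs, the 4 strands of miR-132 and miR-212 were lower in striatum than in cortex, beside 12.9% of all miRNAs. In cerebellum 5 were lower than in cortex, beside 22.5% of all miRNAs. There miR-184-3p (9.39 to 17.8 CPM (median 12.4) in cortex, 2.87 to 7.68 CPM (median 3.85) in cerebellum) joined the 4 strands. The remaining members, miR-134-5p and miR-188-5p, were not called, with log2 fold changes of cerebellum over cortex of 0.60 and 0.70. The merged entry of miR-23a-3p and miR-23b-3p, whose reads cannot be split between the 2 hairpins, was also cortex-high, with 414 to 1216 CPM (median 703) in cortex, 215 to 319 CPM (median 243) in striatum and 161 to 475 CPM (median 219) in cerebellum. Its cortex libraries overlapped with those of cerebellum, and within replicates 4 to 6 the striatal difference of −0.77 was not called.

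Lowest in cortex, beside miR-206-3p and miR-187-3p, were miR-700-3p, miR-298-5p and miR-320-3p. miR-700-3p had 15.1 to 46.1 CPM (median 28.8) in cortex, 90.6 to 162 CPM (median 112) in striatum and 85.4 to 168 CPM (median 131) in cerebellum. miR-298-5p had 46.4 to 116 CPM (median 84.7), 255 to 445 CPM (median 366) and 142 to 325 CPM (median 269.7). For both, every cortex library lay below every library of the other regions. miR-320-3p, with 256 to 1038 CPM (median 422), 1081 to 1449 CPM (median 1320.1) and 1312 to 2599 CPM (median 1823), was separated as well, but its striatal excess of 1.38 ± 0.30 fell to 0.89 within replicates 4 to 6 and was not called there.

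Of 18 tested neuron-enriched miRNAs, 11 were lower and none was higher in cerebellum than in cortex. Over all miRNAs 22.5% were lower and 17.2% higher there. The median log2 fold change of the 18 was −1.21, against −0.14 over all miRNAs. In striatum 3 of the 18 were higher and 2 lower than in cortex, beside 7.9% and 12.9% of all miRNAs. miR-124-3p, a miRNA known for its restriction to neurons, stood at 54741 to 99653 CPM (median 65209.8) in cerebellum, 24008 to 52531 CPM (median 42895) in cortex and 13226 to 35092 CPM (median 16789.9) in striatum. Cerebellum lay above cortex without overlap, but by less than 1 log2 unit (0.75 ± 0.22). The difference between cerebellum and striatum was called (log2 1.90 ± 0.23, edgeR adjusted p = 5.5e-09). Striatum and cortex overlapped, and the lower level in striatum (-1.15 ± 0.22, edgeR adjusted p = 8.1e-05) was not called within replicates 4 to 6 (−0.79). miR-9-5p varied little, with 36061 to 53139 CPM (median 39492) in cerebellum, 35645 to 39381 CPM (median 38314) in cortex and 23921 to 29745 CPM (median 27592) in striatum, and no difference of at least 1 log2 unit. The summed level of 4 neuronal markers overlapped between cerebellum (110990 to 179664 CPM) and cortex (138638 to 160676 CPM). Of 81 tested miRNAs of the imprinted Dlk1-Dio3 clusters, 28 were lower and none was higher in cerebellum than in cortex, beside 22.5% lower over all miRNAs. The median of the 81 was −0.74. With library totals 65 were lower, but lower calls rose over all miRNAs too, as given above for this comparison. Calls in either direction then numbered 305 of 582 miRNAs, against 231 with TMM.

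Glial, vascular and blood miRNAs were counted in the same way. None of 5 tested oligodendrocyte miRNAs was called between any regions, although 0 to 2 of them were called under other scalings. Of 10 microglia and leukocyte miRNAs, 3 were lower in striatum than in cortex. In cerebellum 1 of them was higher and 3 were lower against cortex, and 2 were higher and 2 lower against striatum. Of 5 miRNAs of endothelium and vessel wall, 2 were lower in striatum than in cortex, 1 was lower in cerebellum than in cortex and 1 was higher in cerebellum than in striatum. Against cortex, 7.9% of all miRNAs were called higher and 12.9% lower in striatum, and 17.2% higher and 22.5% lower in cerebellum. Against striatum, 19.6% of all miRNAs were called higher and 23.5% lower in cerebellum. The 3 miRNAs of meninges and mesenchyme gave 2 lower calls in striatum than in cortex, 1 higher call in cerebellum than in cortex and 2 higher calls in cerebellum than in striatum, beside the summed marker levels given above. Of 4 erythroid miRNAs, the merged miR-486 entries of both strands were higher in cerebellum (log2 1.82 and 2.15 over cortex), while miR-144-3p (−0.74) had a value below 0 and was not called there. miR-451a was not called there either, and no fold is given since it was at 0 in some libraries. Both miR-204 strands, known from choroid plexus, were called higher in cerebellum than in cortex, but miR-204-5p (295 to 1057 CPM (median 416) in cerebellum, 83.7 to 993 CPM (median 137) in cortex, 53.8 to 74.5 CPM (median 64.3) in striatum) overlapped between these regions and lost that call with library totals (0.30) and when replicate 2, 3, 4, 5 or 6 was left out (0.78 to 1.02).

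Seed families were described by the direction of their called members. Seeds were taken from the 500 of 582 tested names that matched RefSeq. Tested names without a match, among them miR-30b-5p and miR-34c-5p, were left out of the families below. Among 45 seed families with at least 2 matched members, those with at least 2 members called numbered 8 between striatum and cortex, 12 between cerebellum and cortex and 15 between cerebellum and striatum. In 5, 10 and 10 of these all called members went in 1 direction, and in 3, 2 and 5 they went in both. Besides miR-34a with miR-449a, the split families included miR-28a-5p with miR-708-5p. The merged miR-28a-5p/28c entry had 94.2 to 314 CPM (median 155.5) in cerebellum and 26.1 to 46.2 CPM (median 41.4) in cortex, while miR-708-5p had 248 to 366 CPM (median 307) and 877 to 1172 CPM (median 1021). The first rose by 2.15 ± 0.26 log2 units in cerebellum (edgeR adjusted p = 7e-09) and the second fell, with a log2 fold change of -1.70 ± 0.13 (edgeR adjusted p = 1.3e-13).

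The naive WT mice, which were separate animals, showed whether these regional differences were kept in the mutant. In WT, the striatum had 62 higher (10.7%) and 97 lower calls (16.7%) against cortex, together 27.3% of those tested. Between cerebellum and cortex 246 were called (42.3%), of which 107 were higher (18.4% of those tested) and the rest lower (23.9%), and between cerebellum and striatum 113 were higher (19.4%) and 130 lower (22.3%), together 41.8%. Called in both genotypes, always in the same direction, were 102, 193 and 206 miRNAs. These are 84.3%, 83.5% and 82.1% of the calls in DYT1KI mice and 64.2%, 78.5% and 84.8% of those in WT mice. Of the calls in DYT1KI mice, 2, 0 and 2 had a log2 fold change of opposite sign in WT. Across the 582 miRNAs, the log2 fold changes of the 2 genotypes had Pearson correlations of 0.860, 0.813 and 0.856, a description over miRNAs that share libraries and are not independent replicates. Of the 20 miRNAs with the smallest adjusted p in DYT1KI in each comparison, 10 per direction, 20, 19 and 20 were also called in WT; the exception was miR-153-5p between cerebellum and cortex.

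Levels of 4 of the region-defining miRNAs in WT are given first, and miRNAs that differed between genotypes follow further on, among them miR-206-3p, whose cerebellum libraries did not overlap between genotypes. WT cerebellum held 175 to 509.8 CPM (median 366) of miR-10a-5p and 2749 to 5456 CPM (median 3474) of miR-195a-5p. WT striatum held 4978 to 5731 CPM (median 5528) of miR-187-3p and 19668 to 24529 CPM (median 21363) of miR-139-5p. The DYT1KI minus WT difference of the striatum over cortex log2 fold change was -0.33 ± 0.20 for miR-187-3p (95% interval -0.73 to 0.07) and 0.10 ± 0.15 for miR-139-5p (95% interval -0.21 to 0.41). For the cerebellum over cortex, it was 0.10 ± 0.31 for miR-10a-5p (95% interval -0.53 to 0.73) and -0.34 ± 0.14 for miR-31-5p (95% interval -0.62 to -0.05). Absence of a call does not show equality: among miRNAs called in either genotype, the 95% interval of the difference lay within 1 log2 unit of 0 in 49 of 178 between striatum and cortex, 96 of 284 between cerebellum and cortex, and 120 of 288 between cerebellum and striatum.

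**Figure D3:**
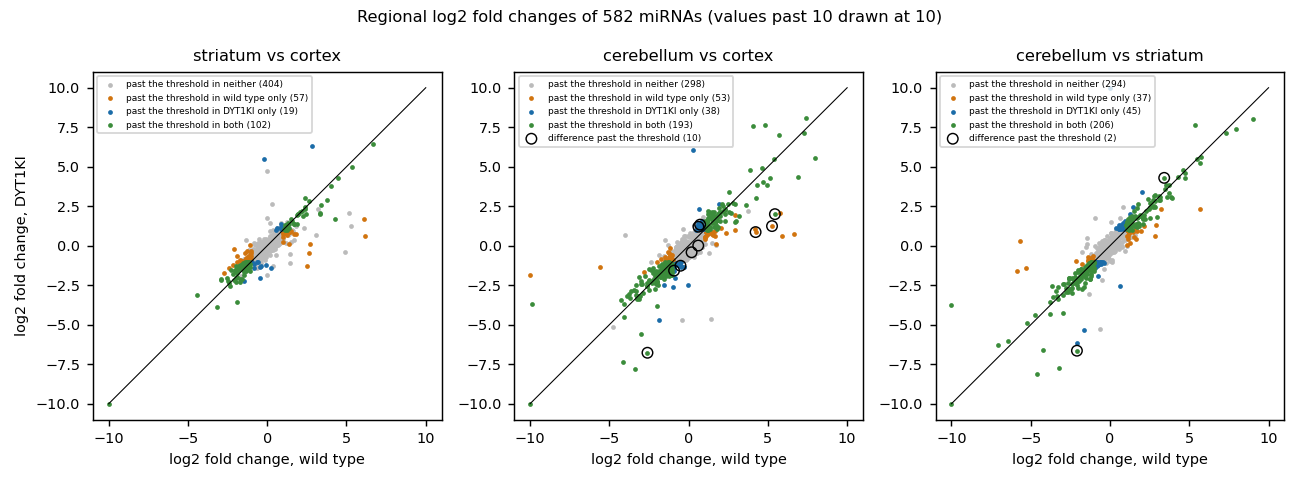
Log2 fold change of each of the 582 miRNAs in naive DYT1KI (y axis) against naive WT (x axis) for striatum over cortex, cerebellum over cortex and cerebellum over striatum, coloured by the genotypes in which it was called, with the line of equality; circles mark miRNAs whose difference between genotypes was called. Points called in both genotypes, 102, 193 and 206, lie in the lower left and upper right, and 0, 10 and 2 are circled.

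The number of striatum to cortex differences kept in the mutant varied with the replicate range. Within DYT1KI replicates 1 to 3 there were 190 calls, of which 134 were shared with WT, and within replicates 4 to 6 there were 75, of which 52 were shared. Without the cortex library of replicate 1 the comparison gave 102 calls, of which 88 were shared. The comparisons with cerebellum gave 215 to 257 calls within either range. The Pearson correlation with WT between striatum and cortex was 0.806 within replicates 1 to 3 and 0.440 within replicates 4 to 6, and that of the comparisons with cerebellum was 0.748 to 0.823 within either range. All 6 WT replicates per region were kept as the reference for these shared calls and correlations. The WT side therefore mixed both replicate ranges, and no matched WT range was set against them here.

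The difference between genotypes was tested as the regional log2 fold change in DYT1KI minus that in WT, with an adjusted p under 0.05 and no minimum fold. No miRNA of 582 (0%) was called between striatum and cortex by edgeR, where 19 had an unadjusted p under 0.05, and DESeq2 also called 0, with 21 such miRNAs. Between cerebellum and cortex 10 were called (1.72%), 2 higher (0.344%) and 8 lower (1.37%), and between cerebellum and striatum 2 (0.344%), 1 in each direction (0.172%). None of these 12 calls held in all alternatives, and the number of alternatives in which a call held ran from 7 of 28 to 14 of 28.

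miR-206-3p was called between cerebellum and striatum. Its WT levels were 1996 to 2852 CPM (median 2656) in cerebellum and 214 to 298 CPM (median 235) in striatum, against 2969.6 to 4949 CPM (median 4087) and 160.3 to 251 CPM (median 203) in DYT1KI. All 6 DYT1KI cerebellum libraries lay above all 6 of WT, and the striatum libraries of the genotypes overlapped. The regional log2 fold change was 4.30 ± 0.16 in DYT1KI and 3.42 ± 0.15 in WT, a difference of 0.88 ± 0.19 (edgeR adjusted p = 0.023). With the animal as a block the adjusted p was 0.118, and over 28 alternatives the adjusted p ran from 0.000297 to 0.399 while the difference stayed between 0.52 and 1.26.

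For let-7a-5p and let-7c-5p the cerebellum exceeded the cortex by more in DYT1KI than in WT. let-7a-5p had 93624 to 127581 CPM (median 122580.0) in WT cerebellum and 53148 to 79741 CPM (median 74102) in WT cortex, against 140555 to 195963 CPM (median 170943) and 56312 to 95526 CPM (median 62684) in DYT1KI. The difference between genotypes was 0.61 ± 0.16 for let-7a-5p (edgeR adjusted p = 0.041) and 0.59 ± 0.16 for let-7c-5p (edgeR adjusted p = 0.042). All 9 let-7 guide strands had a difference above 0, from 0.39 to 0.61 against cortex and from 0.49 to 0.64 against striatum, where none was called. Their share of the counts in cerebellum was 45.0% to 54.1% in WT (median 52.9%) and 51.4% to 63.0% in DYT1KI, ranges that overlap. Both calls were absent with DESeq2 size factors and with upper-quartile scaling, where the values changed little (0.67 and 0.60 for let-7a-5p). Within replicates 4 to 6 of both genotypes the differences were smaller and not called, 0.26 for let-7a-5p and 0.25 for let-7c-5p. Over 27 alternatives they ran from 0.26 to 0.83 for let-7a-5p and from 0.25 to 0.80 for let-7c-5p.

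A further 4 miRNAs with counts in all libraries were lower in the DYT1KI cerebellum relative to cortex than in WT. miR-153-5p had 35.7 to 63.9 CPM (median 52.2) in cerebellum and 139.9 to 185 CPM (median 149) in cortex of DYT1KI mice, against 65.1 to 80.2 CPM (median 74.6) and 117 to 154.2 CPM (median 140.3) in WT. The regional log2 fold change was -1.58 ± 0.11 in DYT1KI and -0.92 ± 0.11 in WT, a difference of -0.66 ± 0.15 (edgeR adjusted p = 0.041). miR-376b-3p, of the Dlk1-Dio3 region, differed by -0.75 ± 0.19 (edgeR adjusted p = 0.041). miR-20a-5p, of the miR-17-92 cluster, had a log2 fold change of 0.01 ± 0.11 in DYT1KI and 0.61 ± 0.11 in WT, neither called, a difference of -0.59 ± 0.16 (edgeR adjusted p = 0.041). miR-425-3p differed by -0.60 ± 0.15 (edgeR adjusted p = 0.041). miR-6945-3p was called in both comparisons with cerebellum, at levels near the detection limit: 0.900 to 1.97 CPM (median 1.53) in cortex and 1.12 to 2.03 CPM (median 1.29) in striatum, with all 6 DYT1KI cerebellum libraries at 0. In WT cerebellum it had 0 to 0.655 CPM (median 0.258). With 3 counts per library as the floor it was at least 3.90-fold lower in cerebellum than in cortex of DYT1KI mice, and its fitted difference between genotypes is not a bound. With the animal as a block neither call held (edgeR adjusted p = 0.062 against cortex and 0.118 against striatum).

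The other 3 calls, miR-448-3p, miR-1298-5p and miR-1264-3p, are miRNAs of Htr2c, a receptor gene that is strongly expressed in choroid plexus, and they rested on 1 library. miR-1298-5p had 1151 CPM in the cortex library of replicate 1 and 8.88 to 43.8 CPM in the other 5, with 76.1 to 109 CPM (median 82.4) in striatum and 321 to 777 CPM (median 477) in cerebellum. miR-448-3p had 152 CPM in that library and 2.59 to 7.42 CPM in the other 5, with 15.7 to 25.2 CPM (median 21.2) in striatum and 85.6 to 154.3 CPM (median 112) in cerebellum. With all libraries miR-1298-5p had a log2 fold change of striatum over cortex of -1.27 ± 0.72, and without that library it was 2.14 and called. For miR-448-3p the value turned from -0.45 ± 0.62 to 2.38. Of 8 tested Htr2c-hosted miRNAs, 3 were higher in striatum than in cortex with all libraries and 8 without that library. In WT, with no such library, 7 of 8 were higher. Over all miRNAs, higher calls in striatum made up 7.9% in DYT1KI with all libraries and 10.7% in WT. The same cortex library had 993 CPM of miR-204-5p against at most 182 CPM in the other 5, and the summed level of 5 choroid plexus and ependyma markers was 2161 CPM there and at most 586 CPM in the others. The part of choroid plexus tissue in this library was not tested.

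**Figure D4:**
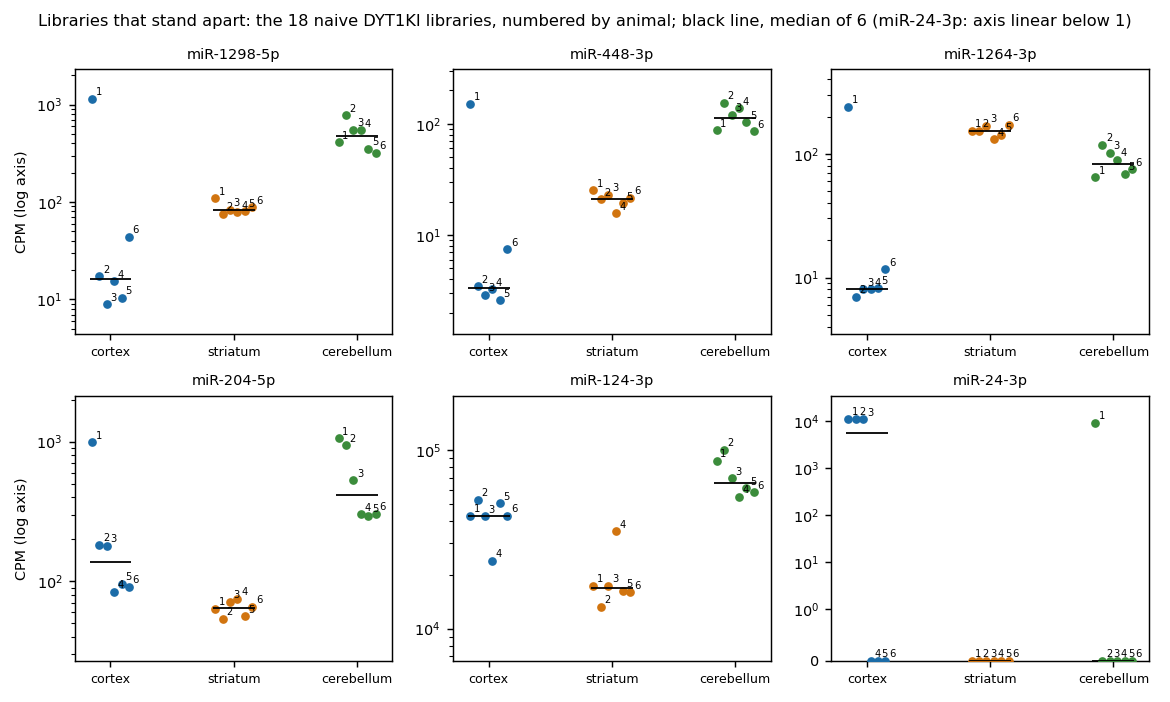
CPM (log axis, linear below 1 for miR-24-3p) of 6 miRNAs in the 18 naive DYT1KI libraries, numbered by replicate, with a black line at the median of 6. Cortex library 1 lies far above its group for miR-1298-5p (1151 CPM), miR-448-3p (152 CPM), miR-1264-3p (241 CPM) and miR-204-5p (993 CPM), cortex library 4 lies lowest for miR-124-3p (24008 CPM), and miR-24-3p is at 0 in 3 cortex libraries.

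The balance between the strands of a hairpin also differed between regions. The ratio of 5p to 3p counts within a library needs no scaling between libraries. It was tested with limma on log2 ratios, with a pseudocount of 1, for the 84 hairpins whose strands both had a mean of at least 20 counts in each region. Of these, 5 (5.95%) differed by at least 1 log2 unit between striatum and cortex, 22 (26.2%) between cerebellum and cortex and 22 (26.2%) between cerebellum and striatum. The shift was toward the 5p strand in cerebellum for 14 and 16 of them. With the animal as a block the number between striatum and cortex was 12. Where a WT ratio could be computed, the sign was the same in 4 of 4, 20 of 20 and 21 of 21.

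let-7d, a let-7 hairpin, moved toward its 5p guide strand in cerebellum. The 5p share was 99.9% to 99.98% (median 99.96%) in cerebellum and 99.6% to 99.9% (median 99.7%) in cortex, and the log2 ratio was higher by 2.82 ± 0.27 (limma adjusted p = 2.1e-07; WT 2.78). miR-361 (2.04 ± 0.22, limma adjusted p = 1.2e-06), miR-674 (1.75 ± 0.22, limma adjusted p = 3.6e-06) and miR-671 (1.48 ± 0.17, limma adjusted p = 1.5e-06) moved the same way. The 3p strand of miR-124 gained further in cerebellum, where the 5p share was 0.140% to 0.193% (median 0.169%) against 0.408% to 0.726% (median 0.477%) in cortex, a log2 difference of -1.59 ± 0.22 (limma adjusted p = 1.8e-05). In the same direction were miR-381 (-2.07 ± 0.30, limma adjusted p = 2.3e-05) and miR-125a (-1.68 ± 0.24, limma adjusted p = 2.3e-05). In all of these hairpins the dominant strand was the same in the 3 regions.

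miR-92b had the clearest striatal shift. Its 5p strand made up 15.7% to 33.6% (median 25.5%) of its counts in striatum, 5.79% to 13.6% (median 8.05%) in cortex and 4.12% to 8.64% (median 6.33%) in cerebellum. All striatum libraries lay above all others. The log2 ratio was higher in striatum than in cortex by 1.89 ± 0.26 (limma adjusted p = 7.6e-05), and WT mice had 1.96. Between cerebellum and striatum the ratio of miR-221 also shifted, with a 5p share of 7.84% to 11.4% (median 10.2%) against 3.60% to 4.93% (median 4.41%) and a log2 difference of 1.28 ± 0.15 (limma adjusted p = 1.5e-06). The shift of miR-1298 between striatum and cortex (-2.14 ± 0.46, limma adjusted p = 0.0058) involves the cortex library of replicate 1, which had the highest 5p share of its group, 99.2%; without it 2 hairpins were called between striatum and cortex.

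**Figure D5:**
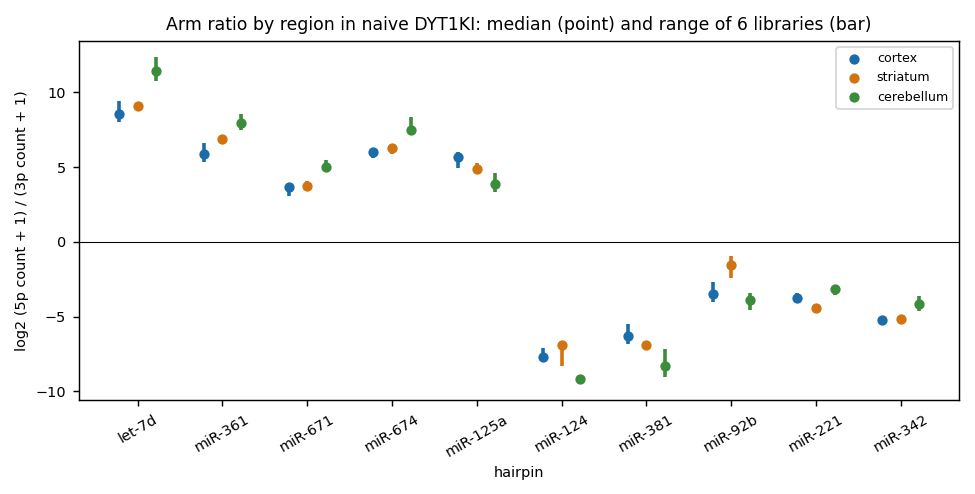
Log2 ratio of 5p to 3p counts (pseudocount 1) of selected hairpins in cortex, striatum and cerebellum of naive DYT1KI mice, as the median (point) and the range of 6 libraries (bar); above 0 the 5p strand is the more abundant. The cerebellum lies above cortex for let-7d, by 2.82, and the striatum lies above both other regions for miR-92b, by 1.89 over cortex.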

How the data were processed

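Small RNA was sequenced from cortex, striatum and cerebellum of naive DYT1KI and WT mice, with 6 libraries per region and genotype, and the 36 naive libraries were analysed together. The authors deposited raw read counts per mature miRNA, made with featureCounts 1.6.4 and handled in R 4.1.0 per the submitters' processing notes. For the aligner, genome build, miRNA annotation and handling of molecular barcodes, the sources used here give nothing, so counts may include amplification copies. Standard errors and intervals include the variation between libraries estimated in the fit as well as counting error. Floors cover counting error only. Counts were joined by miRNA name over the region files; 35 merged entries were kept as listed.

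miRNAs were filtered with filterByExpr (minimum count 10, minimum total 15), scaled with TMM and tested with edgeR 4.0.16 in R 4.3.3 (quasi-likelihood test, all 6 groups in 1 fit, Benjamini-Hochberg adjustment over 582 miRNAs, threshold 0.05 and at least 1 log2 unit; no minimum for the difference between genotypes). CPM are counts scaled to the TMM-adjusted library size. Intervals are at 95%. A prior count of 2 was used for log2 CPM. Arm ratios were tested with limma 3.58.1 (pseudocount 1, moderated with trend and robust settings) on the 18 DYT1KI libraries. DESeq2 1.42.0 served as an alternative. Scripts were tested on simulated data. No pair of libraries held identical counts.

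The named miRNAs are, for each comparison, the 10 leading ones by adjusted p in either direction, the 8 leading region-high and 5 leading region-low miRNAs, all whose difference between genotypes was called, the 5 leading arm ratios per direction, called members of the lists, and miR-124-3p, miR-9-5p, miR-128-3p, miR-132-3p, miR-206-3p and miR-24-3p; those not described were left out for length. The region, the members and the lists were chosen with earlier results of these data known. Replicate numbers mark animals, so the 3 libraries of a number come from 1 mouse. Deviations from the group means correlated within DYT1KI animals with a median r of 0.36 between cerebellum and cortex (0.02 to 0.52), −0.11 between cerebellum and striatum (−0.20 to 0.10) and −0.05 between striatum and cortex (−0.31 to 0.11). Sequences and coordinates are from RefSeq for GRCm38.p6 and host genes from GENCODE vM21. Crush-injured mice were not analysed here.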

Additional observations from a re-analysis of the deposited data

Results flagged for a closer look

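Among 195 groups of 6 libraries checked, 17 held a library whose gap to its nearest neighbour was larger, as a share of the group's range, than Dixon's critical value at 95% for 6 values; chance alone gives such a gap in about 1 of 20 groups. In the cortex of DYT1KI replicate 1 these were miR-1298-5p at 1151 CPM (others 8.88 to 43.8), miR-1264-3p at 241 CPM (others 7.01 to 11.6), miR-448-3p at 152 CPM (others 2.59 to 7.42), miR-204-5p at 993 CPM (others 83.7 to 182) and miR-206-3p at 18.8 CPM (others 13.3 to 14.9). In the cortex of replicate 4, let-7a-5p stood at 95526 CPM (others 56312 to 64746), let-7c-5p at 125136 CPM (others 72662 to 78743), let-7f-5p at 77919 CPM (others 47299.9 to 56858) and let-7g-5p at 71474 CPM (others 47945 to 55182). The same library had miR-139-3p at 353 CPM (others 104 to 160), miR-181c-5p at 196 CPM (others 318 to 397) and miR-124-3p at 24008 CPM (others 42466 to 52531). The striatum library of replicate 4 had miR-124-3p at 35092 CPM (others 13226 to 17361). Single libraries lay apart for miR-153-5p in cortex replicate 5 at 185 CPM (others 140 to 155), miR-138-5p in striatum replicate 2 at 43559 CPM (others 48520 to 49713), miR-10a-5p in cerebellum replicate 6 at 153 CPM (others 282 to 391) and miR-24-3p in cerebellum replicate 1 at 9259 CPM (others 0).

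A difference between genotypes in the regional log2 fold change, DYT1KI minus WT, was called by edgeR for 12 values. For cerebellum over cortex these were let-7a-5p (0.61), let-7c-5p (0.59), miR-153-5p (−0.66), miR-20a-5p (−0.59), miR-376b-3p (−0.75), miR-425-3p (−0.60), miR-1264-3p (−3.36), miR-1298-5p (−4.02), miR-448-3p (−3.44) and miR-6945-3p (−4.18). For cerebellum over striatum they were miR-206-3p (0.88) and miR-6945-3p (−4.56). Without cortex library 1 the values of miR-1298-5p (−0.64), miR-448-3p (−0.65) and miR-1264-3p (−0.97) were not called. The fitted values of miR-6945-3p depend on the prior count, since all DYT1KI cerebellum libraries were at 0.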

How the results depend on the processing

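Most regional values kept their call, while the differences between genotypes varied more with the processing. Of 189 regional values of named miRNAs, 118 kept their call under every alternative, and of 4149 alternative values 3934 kept it, 132 lost it, 73 gained it and 10 reversed. The reversed values were all of striatum over cortex. miR-448-3p (−0.45) became 1.54 with limma voom, 2.07 within replicates 4 to 6, −0.76 to 2.32 when 1 replicate was left out (2.32 without replicate 1), 2.38 without cortex library 1 and 2.39 without that library and replicate 4. miR-1298-5p (−1.27) became 1.83 within replicates 4 to 6, −1.56 to 2.06 when 1 replicate was left out (2.06 without replicate 1), 2.14 without cortex library 1 and 2.10 without that library and replicate 4, and miR-34c-5p (−1.39) became 0.030 within replicates 4 to 6. The cause was not tested.

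Counts of differences between genotypes, for cerebellum over cortex and cerebellum over striatum, were 22 and 12 with DESeq2, 0 and 0 with DESeq2 size factors in edgeR (103 and 45 at an unadjusted p under 0.05), 49 and 5 with library totals, 0 and 1 without a filter, 19 and 1 with voom, 5 and 10 within DYT1KI replicates 4 to 6, and 6 and 0 without cortex library 1 and replicate 4. For cerebellum over cortex alone edgeR gave 0 with upper-quartile scaling (108 unadjusted), without the all-or-none miRNAs (107), with scaling without let-7 (90) and within replicates 4 to 6 of both genotypes (68), 5 without cortex library 1 and 67 with the replicate range as a term. Within replicates 4 to 6 of both genotypes there were 7 for striatum over cortex and 1 for cerebellum over striatum. For cerebellum over striatum edgeR gave 0 within replicates 1 to 3 of DYT1KI (73) or of both genotypes (71).

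Regional calls between striatum and cortex numbered 40 when a change above 1 log2 unit was required by glmTreat, 240 with no minimum fold, 190 within replicates 1 to 3 and 75 within 4 to 6; those between cerebellum and cortex were 355 with no minimum fold, and those between cerebellum and striatum 161 with glmTreat. Library totals gave 26 cerebellum-high, 194 cerebellum-low, 46 striatum-high and 19 striatum-low miRNAs, and upper-quartile scaling gave 41 cortex-high, 14 striatum-high and 57 striatum-low. Arm ratio calls (striatum to cortex, cerebellum to cortex, cerebellum to striatum) were 2, 6 and 8 with at least 100 counts and 12, 34 and 36 with no minimum fold, and 34 between cerebellum and striatum with at least 5 counts.

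With the animal as a replicate block, edgeR called 0 differences between genotypes for cerebellum over striatum (52 unadjusted) and 12 arm ratios between striatum and cortex; no other count moved by over 1.5 times. Leaving out 1 replicate at a time gave 94 to 160 calls for striatum to cortex, 223 to 239 for cerebellum to cortex and 239 to 250 for cerebellum to striatum. The differences between genotypes then numbered 0 to 0, 0 to 32 and 0 to 2. Region-high counts were 18 to 37 (cortex), 21 to 39 (striatum) and 62 to 74 (cerebellum), and region-low counts 16 to 24, 25 to 44 and 79 to 101. Arm ratio counts were 2 to 22, 17 to 22 and 18 to 26. Values near the floor of 3 counts per library, 0.33 to 0.40 CPM, are limited by depth.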

Other observations

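Some miRNAs were all or none among libraries of a group, and their single levels belong in no comparison. List counts and marker sums include some of them. miR-24-3p had 0 counts in 3 of 6 cortex libraries of DYT1KI mice and 99885 to 118774 counts in the others. It was at 0 in all 6 striatum libraries and in 5 of 6 cerebellum libraries, with 69536 counts in the remaining one. In WT cortex 3 libraries were at 0 and the others had 94332 to 108875 counts. miR-3099-3p had 0 counts in 3 cortex libraries and in all 6 cerebellum libraries of DYT1KI mice, 2090 to 3714 counts in the other cortex libraries and 6229 to 10185 counts in striatum. The same kind of pattern was present for miR-337-3p, at 0 in 2 cerebellum libraries and at 580 to 1130 counts in the other 4.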
